A study of Mus musculus with 16 samples.

Results

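Excitatory projection neurons of the cerebral cortex are arranged in layers, and each layer's neurons acquire their identity from a small set of transcription factors that act in combination and often repress one another. Cux1 and Cux2 (cut-like homeodomain proteins) mark the upper layers, Rorb (a retinoid-related orphan nuclear receptor) marks the thalamus-recipient layer IV, Bcl11b (a zinc-finger protein also called Ctip2) and Fezf2 (a zinc-finger repressor upstream of it) specify subcerebral neurons of layer V, and Tbr1 (a T-box factor), Foxp2 (a forkhead factor) and Tle4 (a Groucho-type co-repressor) mark layer VI and its corticothalamic neurons. Neurod6, a basic helix-loop-helix factor, is shared by nearly all glutamatergic projection neurons of the cortex. These 9 genes were chosen by symbol, as textbook layer markers, from the 53679 gene symbols of the expression table. None is specific to the cortex in every setting: Bcl11b and Foxp2 are also made by striatal projection neurons, Bcl11b by some interneurons, and Cux1 by many cell types.

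RNA was sequenced from 16 primary neuronal cultures (PNCs) prepared from the cortex of wt mouse fetuses at embryonic day 15, with 4 cultures in each of 4 groups. The groups crossed oxygen-glucose deprivation (OGD, an in vitro model of ischemic stroke in which cells lose oxygen and glucose) with pretreatment by tianeptine (TIA, an atypical antidepressant). At 8 days in vitro (DIV) the cultures received either vehicle (DMSO, VEH; named untreated in one of the labels) or 10 μM TIA, and 24 h later, at DIV 9, either 3-h OGD or a sham change of conditions, followed by 6 h of reoxygenation, at the end of which all RNA was taken. CONTROL-VEH comprised cultures 1 to 4, CONTROL-TIA cultures 5 to 8, OGD-VEH cultures 9 to 12 and OGD-TIA cultures 13 to 16. Nothing in the labels says that the cultures of a group came from separate litters or preparations, so p-values measure the spread between these cultures. A dissociated fetal culture has no layers, and the genes below report which neuron types it holds or which programmes they run, not position. In such bulk RNA, fewer cells of a type and less RNA per cell cannot be told apart.

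Each value is the level of a gene in fragments per kilobase of transcript, scaled by library size (FPKM), summed over its isoforms. The effective depth, estimated from the steps of low values, was 19400000 to 25700000 reads per culture. It includes the scaling between libraries that the deposited values carry, so it need not equal the number of aligned reads. A single kilobase-long transcript gained 0.0409 to 0.0542 FPKM with each read. Differences were tested with limma on log2(FPKM + 0.1) across all genes that averaged 0.5 FPKM or more, padj is the Benjamini-Hochberg adjusted p over all of them, and a differentially expressed gene (DEG) had a padj of at most 0.05 and at least a 2-fold change. Log2 fold changes are given with their standard error. Cultures within OGD groups were unlike one another. Summed over 12 neuron markers, OGD-VEH cultures ranged from 1691 to 3397 FPKM against 3619 to 4202 FPKM in CONTROL-VEH, and OGD-TIA cultures from 2244 to 3694 FPKM against 3714 to 3888 FPKM in CONTROL-TIA. Microglia markers summed to at most 3.13 FPKM and vascular markers to at most 18.5 FPKM in any culture.

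On the GRCm38 build of the mouse genome, Cux1 (chr5:136248135-136567490), Cux2 (chr5:121856366-122050102), Rorb (chr19:18930605-19111196), Bcl11b (chr12:107910403-108003602), Fezf2 (chr14:12342094-12348189), Tle4 (chr19:14448150-14598051) and Neurod6 (chr6:55677822-55681263) lie on the minus strand. Tbr1 (chr2:61802930-61814114) and Foxp2 (chr6:14901349-15441977) lie on the plus strand. The table lists from 1 isoform (Neurod6) to 20 isoforms (Foxp2) for them.

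All of these regulators were expressed in control PNCs, at levels that differed widely. Over the 8 control cultures, Neurod6 had the highest mean level, 154.7 ± 13.8 FPKM (SD, n = 8), above 91.5% of the genes tested. Tbr1 followed with 48.1 ± 5.89 FPKM, Fezf2 with 33.8 ± 3.82 FPKM, Cux1 with 29.9 ± 5.801 FPKM, Bcl11b with 26.4 ± 1.52 FPKM, Cux2 with 22.02 ± 6.47 FPKM and Tle4 with 20.5 ± 2.54 FPKM. Rorb at 3.87 ± 0.24 FPKM and Foxp2 at 2.27 ± 1.46 FPKM were the lowest. Between neighbours in this order, the ranges of single cultures were apart for Neurod6 and Tbr1, for Tbr1 and Fezf2, and for Tle4 and Rorb, and overlapped for the other neighbours. FPKM is scaled by transcript length, so these levels can be set side by side, although short isoforms weigh heavily in the sums of Cux1, Cux2 and Foxp2, as described with each gene. In the Tbr1 sum, the short Tbr1-203 held 13.6% of the FPKM, or 3.07% once weighted by length. The long Tbr1-201 alone was 37.5 FPKM in culture 3, below the highest Fezf2 value of the controls, 39.2 FPKM.

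**Figure D1:**
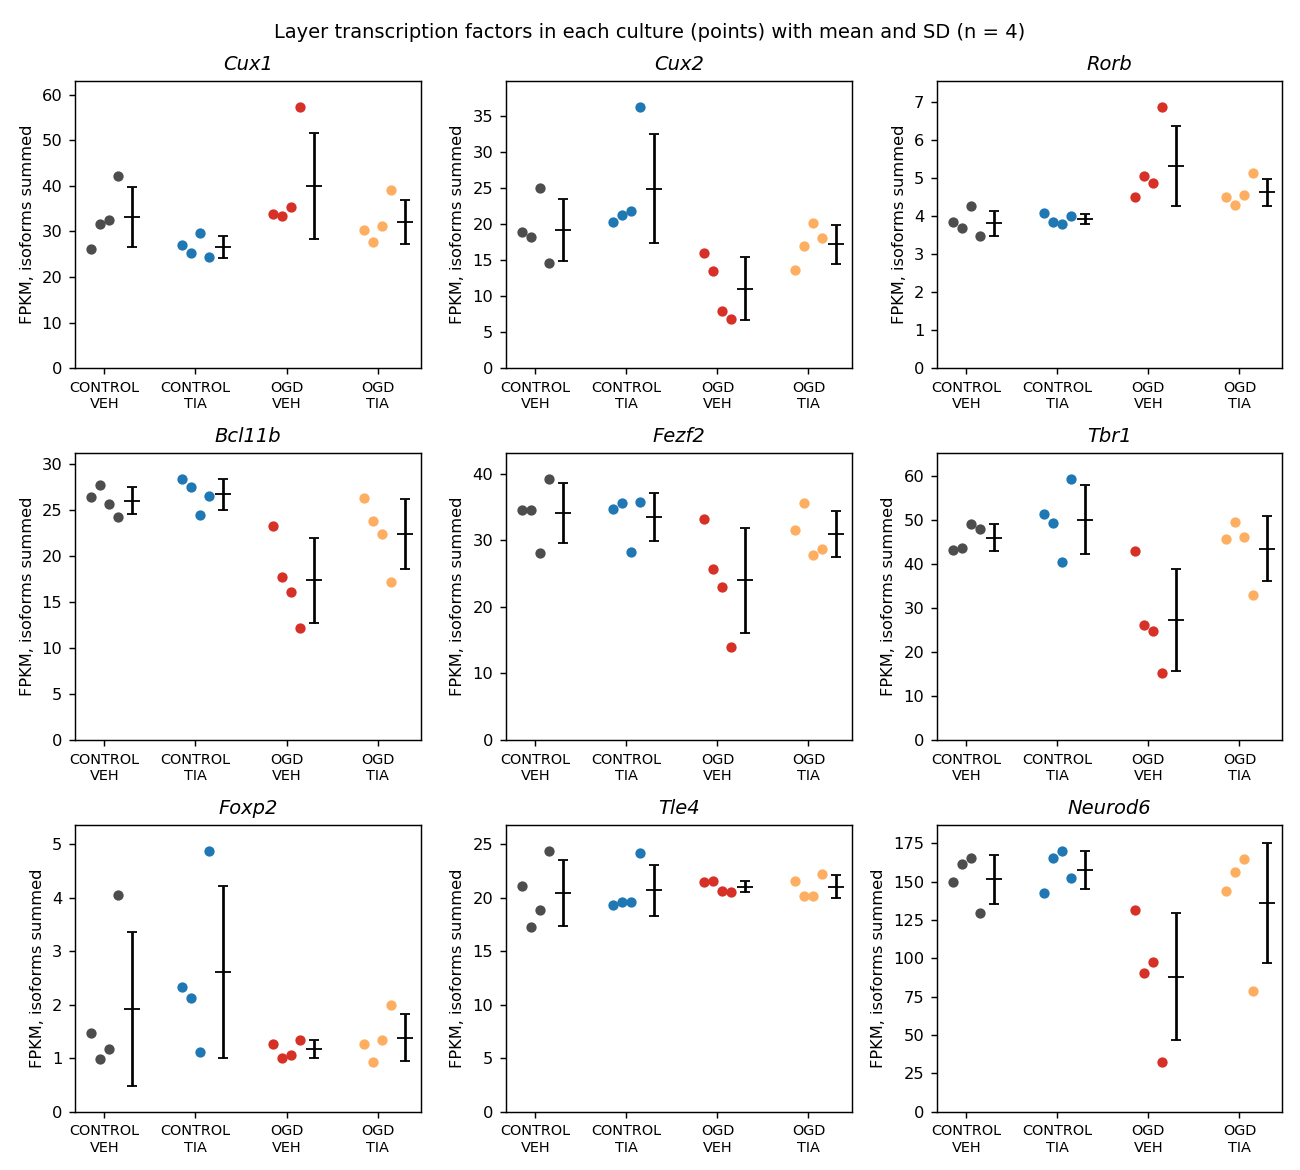
FPKM of each layer transcription factor (y axis, isoforms summed, starting at 0) in the 4 groups (x axis), with 1 point per culture in the order of their numbers and the group mean with SD beside them. In OGD-VEH, Bcl11b and Tbr1 lay below every CONTROL-VEH culture and Rorb above every one, and culture 9, the first OGD-VEH point, was nearest to the controls for Cux2, Bcl11b, Fezf2, Tbr1 and Neurod6.

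After OGD without TIA, the factors did not move as one group. Every OGD-VEH culture lay below every CONTROL-VEH culture for Bcl11b and Tbr1, an arrangement found in 9.95% of all genes tested. For Rorb every OGD-VEH culture lay above, as for 12.7% of all genes. Cux2, Fezf2, Foxp2 and Neurod6 had lower means, and Cux1 and Tle4 higher means, each with overlap between the groups. Of 16346 genes tested in OGD-VEH vs. CONTROL-VEH, 668 were DEGs, 4.09% of all, and 0 of the 9 factors was among them. At padj alone 0 of the 9 passed, while at an unadjusted p under 0.05 there were 4 lower factors, against 14.9% of all genes, and 1 higher factor, against 20.2% of all genes. The median log2 fold change of the 9 was -0.56, beside 0.10 over all genes. When both pretreatments were put in 1 model (8 OGD against 8 control cultures, with TIA as a second term), 4 factors passed padj: Cux2, Bcl11b and Tbr1 fell, and Rorb rose. None of the 4 changed by 2-fold there, and 4.78% of all genes were DEGs in that model, which passed padj in 13.4% of genes as lower and in 18.7% as higher.

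Cux2, the upper-layer factor of late-born callosal neurons, had a lower mean after OGD in both arms. CONTROL-VEH cultures had 18.9, 18.1, 24.9 and 14.6 FPKM and OGD-VEH cultures 15.96, 13.5, 7.88 and 6.82 FPKM. With TIA the controls had 20.2, 21.3, 21.8 and 36.2 FPKM and the OGD cultures 13.6, 16.9, 20.1 and 18.1 FPKM. Culture 9 lay inside the CONTROL-VEH range and the other 3 OGD-VEH cultures below it, whereas every OGD-TIA culture lay below every CONTROL-TIA culture, an arrangement found in 6.72% of all genes. The log2 fold change was -0.85 ± 0.30 (padj = 0.0855) without TIA and -0.50 ± 0.21 (padj = 0.236) with TIA, the latter the 1 factor with an unadjusted p under 0.05 in that arm, where 7.92% of genes were lower at that level. In the joint model Cux2 fell by 0.68 ± 0.19 on the log2 scale (padj = 0.0155).

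The Cux2 sum is spread over many transcripts, and its size depended on which were counted. The full-length protein-coding isoform Cux2-202 (8784 bases) held 24.2% of the summed FPKM but 65.0% once each isoform was weighted by its length. Its mean was 4.66 ± 0.99 FPKM in CONTROL-VEH, 4.87 ± 0.34 in CONTROL-TIA, 3.49 ± 1.31 in OGD-VEH and 4.45 ± 0.78 in OGD-TIA, and its pooled log2 fold change of -0.30 ± 0.16 did not pass (padj = 0.28). A pair of retained-intron transcripts, Cux2-211 and Cux2-209, together made up much of the rest. Cux2-211 was 5.90 and 5.48 FPKM in cultures 9 and 10 and 0.17 and 1.08 FPKM in cultures 11 and 12, and Cux2-209 was listed at 0 in cultures 11 and 12. The 36.2 FPKM of culture 8 held 18.8 FPKM of Cux2-205, an isoform of 420 bases that stood for about 171 reads there and was at most 0.737 FPKM in every other culture. With isoforms weighted by length, the Cux2 fold change over both arms was -0.41 (padj = 0.00687), and with protein-coding isoforms alone it was -0.60 and no longer passed (padj = 0.0767).

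Rorb was the 1 factor above its controls in every OGD culture of both arms. CONTROL-VEH cultures had 3.83, 3.68, 4.25 and 3.47 FPKM and OGD-VEH cultures 4.50, 5.06, 4.85 and 6.86 FPKM. CONTROL-TIA cultures had 4.07, 3.84, 3.79 and 4.00 FPKM and OGD-TIA cultures 4.49, 4.30, 4.55 and 5.14 FPKM. All OGD cultures were higher than all controls of their arm, as were 12.7% of all genes in OGD-VEH vs. CONTROL-VEH and 9.51% in OGD-TIA vs. CONTROL-TIA. The log2 fold change was 0.46 ± 0.17 (padj = 0.0984) without TIA and 0.23 ± 0.10 (padj = 0.265) with TIA, and in the joint model Rorb rose by 0.34 ± 0.09 (padj = 0.0139), 1.27-fold.

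Rorb is read from 2 start sites, and both transcripts contributed. Rorb-203, which starts at the distal site, held 59.9% of the FPKM and averaged 2.54 ± 0.30 FPKM in CONTROL-VEH, against 3.20 ± 1.50 FPKM in OGD-VEH. Rorb-201, which starts about midway in the gene, held 38.5%. It had 1.50, 1.11, 1.13 and 1.04 FPKM in CONTROL-VEH, against 1.61, 2.30, 2.69 and 1.46 FPKM in OGD-VEH, with a log2 fold change of 0.68 ± 0.28 (padj = 0.25 over 53087 isoforms). Culture 12 had 5.38 FPKM of Rorb-203, the highest of all, and 1.46 FPKM of Rorb-201. Neither isoform passed padj in any comparison.

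Sequence is shown for the 3 starts of these factors at which RefSeq and the deposited isoforms share a start and the 250 bases before it (GRCm38.p6) touch no annotated exon: both Rorb starts and the start of Neurod6, whose level is described further on. Each is printed 5′ to 3′ on the gene's strand, with E-boxes (CANNTG, the core motif bound by basic helix-loop-helix factors such as Neurod6) in capitals.
Rorb distal start (Rorb-203), chr19:19111197-19111446, minus strand: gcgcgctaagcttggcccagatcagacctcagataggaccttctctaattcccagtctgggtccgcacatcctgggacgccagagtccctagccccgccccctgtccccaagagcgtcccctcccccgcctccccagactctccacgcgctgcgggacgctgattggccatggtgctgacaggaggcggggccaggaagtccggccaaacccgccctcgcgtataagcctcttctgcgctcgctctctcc
Rorb internal start (Rorb-201), chr19:19001118-19001367, minus strand: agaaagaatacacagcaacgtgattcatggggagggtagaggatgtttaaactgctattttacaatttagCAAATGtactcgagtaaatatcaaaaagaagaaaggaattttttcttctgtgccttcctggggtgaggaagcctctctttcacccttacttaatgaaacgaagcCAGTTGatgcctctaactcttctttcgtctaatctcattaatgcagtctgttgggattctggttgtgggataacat
Neurod6 start, chr6:55681264-55681513, minus strand: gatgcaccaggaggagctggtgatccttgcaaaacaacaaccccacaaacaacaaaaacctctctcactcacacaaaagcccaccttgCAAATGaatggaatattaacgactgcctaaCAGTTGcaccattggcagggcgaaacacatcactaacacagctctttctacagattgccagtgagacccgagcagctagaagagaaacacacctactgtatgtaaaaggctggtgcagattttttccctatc
The Rorb internal start and the Neurod6 start each hold 2 E-boxes, and the distal Rorb start holds none in this window. Among all 32851 RefSeq windows of this length, 66.2% hold an E-box, and among the 11 windows of the 8 factors with a RefSeq entry, 6 do. On either strand, the ROR half-site AGGTCA was in 0 of the 11 windows (14% of all) and the T-box half-site GGTGTGA in 0 of the 11 (3.33% of all). The letters ATCGAT, a Cux core, were in 1 window, an alternative start of Cux2 (0.728% of all), and the forkhead core TGTTTAC in 1 window, that of Cux1 (3.17% of all). These counts describe letters in the windows.

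Cux1, the broader paralog of Cux2, had a higher mean after OGD in both arms, without passing the test. CONTROL-VEH cultures had 26.2, 31.7, 32.6 and 42.2 FPKM and OGD-VEH cultures 33.8, 33.3, 35.4 and 57.3 FPKM. CONTROL-TIA ranged from 24.3 to 29.7 FPKM and OGD-TIA from 27.7 to 39.1 FPKM. The groups overlapped in both arms, with 1 of 4 OGD-VEH and 3 of 4 OGD-TIA cultures above their highest control, and the high OGD-VEH mean of 40.0 ± 11.6 FPKM rested on culture 12. Its log2 fold change was 0.25 ± 0.21 (padj = 0.43) without TIA, 0.26 ± 0.12 (padj = 0.28) with TIA and 0.26 ± 0.12 (padj = 0.12) in the joint model.

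The Cux1 locus makes both the homeodomain transcription factor and CASP, a Golgi protein that shares its early exons and ends in others further downstream. Isoforms that end in those downstream exons held 72.8% of the Cux1 FPKM. The 6 isoforms with the last coding exon of the longest one, Cux1-201 (12862 bases), held 8.76%, or 33.4% once weighted by length, and so the summed Cux1 level is mostly not that of the transcription factor. This homeodomain class had 2.65, 2.33, 2.21 and 2.80 FPKM in CONTROL-VEH, against 2.41, 3.36, 3.51 and 5.32 FPKM in OGD-VEH. It had 2.26 to 2.82 FPKM in CONTROL-TIA and 2.20, 2.49, 2.80 and 3.81 FPKM in OGD-TIA. In both OGD groups at least 1 culture stayed inside the control range, and Cux1-201 itself had a log2 fold change of 0.29 ± 0.16 in the joint model (padj = 0.295).

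Much of the difference in the Cux1 sum between cultures came from Cux1-208, a transcript of 805 bases and 9 exons (chr5:136313234-136363295) with neither end. It had 3.63, 7.79, 4.94 and 11.5 FPKM in CONTROL-VEH and only 0.067, 0.691, 0.343 and 0.173 FPKM in CONTROL-TIA. OGD-VEH cultures had 8.54, 6.01, 7.31 and 20.9 FPKM and OGD-TIA cultures 4.12, 1.68, 6.41 and 10.9 FPKM. CONTROL-TIA was thus apart from the other 3 groups, with values that stood for about 1.17 to 11.8 reads per culture against 64.8 to 183 in CONTROL-VEH. On the isoform level the log2 fold change of CONTROL-TIA vs. CONTROL-VEH was -4.18 ± 0.56 (padj = 0.219) and that of OGD-TIA vs. CONTROL-TIA was 3.76 ± 0.68 (padj = 0.287). That of OGD-VEH vs. CONTROL-VEH was only 0.56 ± 0.48 (padj = 0.564). The joint OGD effect, 2.16 ± 0.59, passed (padj = 0.0385), with most of it from the TIA arm. The interaction, by which the OGD effect differed between arms, was 3.20 ± 0.87 (unadjusted p = 0.0025, padj = 0.844). Cux1-205, whose span overlaps that of Cux1-208, went the other way between the control groups. It had 2.76, 0.151, 2.43 and 3.10 FPKM in CONTROL-VEH and 4.80, 3.93, 4.11 and 3.16 FPKM in CONTROL-TIA. Whether reads were traded between these isoforms was not tested. Cux1-211 and Cux1-207 are near-equal in length (2831 and 2821 bases). Culture 13 had 0.001 FPKM of Cux1-211 and 18.2 FPKM of Cux1-207, the highest value of the latter. The sum of both was 17.7 to 22.1 FPKM over OGD-TIA and 16.9 to 25.7 FPKM over the other cultures. How reads were assigned between Cux1-211 and Cux1-207 was not tested either.

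**Figure D2:**
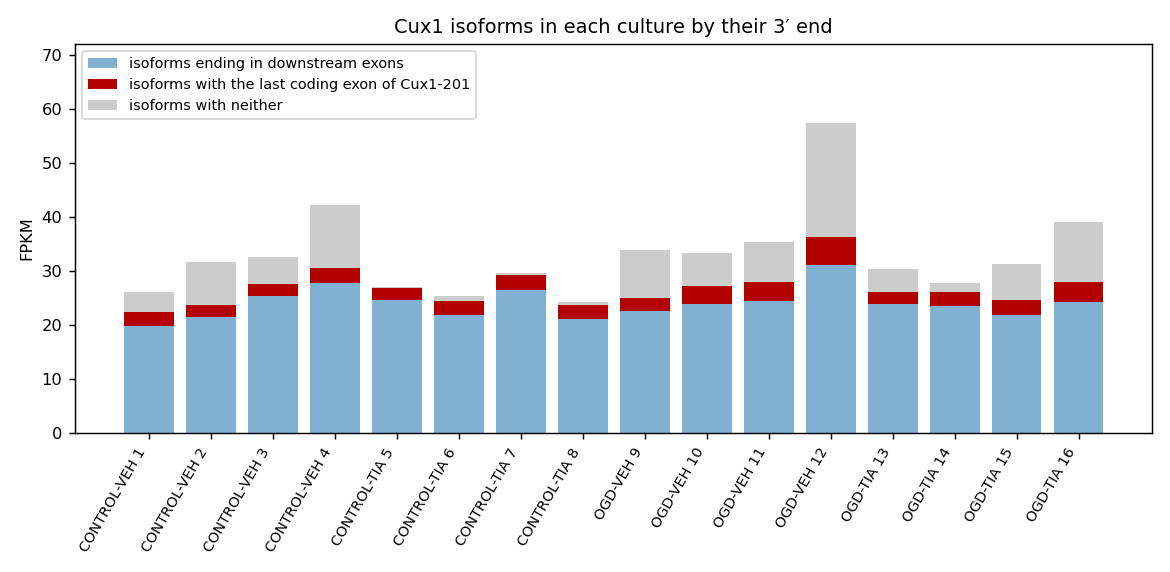
Stacked FPKM of Cux1 isoforms (y axis, from 0) in each of the 16 cultures (x axis), split by the 3′ end of the isoform. The grey class, isoforms with neither end, is between 0.144 and 0.769 FPKM in the 4 CONTROL-TIA cultures and 21.0 FPKM in OGD-VEH culture 12, while the homeodomain class in dark red stays between 2.20 and 5.32 FPKM.

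Bcl11b, which directs the axons of corticospinal neurons, was lower in every OGD-VEH culture. CONTROL-VEH cultures had 26.5, 27.7, 25.7 and 24.2 FPKM and OGD-VEH cultures 23.3, 17.8, 16.1 and 12.2 FPKM. CONTROL-TIA cultures had 28.4, 27.5, 24.4 and 26.5 FPKM and OGD-TIA cultures 26.3, 23.8, 22.4 and 17.2 FPKM. The vehicle groups did not overlap, and 9.95% of all genes tested had every OGD-VEH culture below every CONTROL-VEH culture. In the TIA arm culture 13 lay among its controls. The log2 fold change was -0.62 ± 0.19 (padj = 0.0649) without TIA and -0.27 ± 0.14 (padj = 0.313) with TIA, and in the joint model Bcl11b fell by 0.44 ± 0.12 (padj = 0.0149). Of its isoforms, the full-length Bcl11b-201 held 90.6% of the FPKM and averaged 22.9 ± 1.53 FPKM in CONTROL-VEH, 16.3 ± 4.31 in OGD-VEH and 21.0 ± 3.39 in OGD-TIA. The shorter Bcl11b-203 averaged 3.15 ± 0.82, 1.08 ± 0.53 and 1.40 ± 0.49 FPKM in the same groups and 2.90 ± 0.57 in CONTROL-TIA. Bcl11b-203 fell by 1.30 ± 0.27 in the joint model (padj = 0.0136), whereas Bcl11b-201, at -0.35 ± 0.12, did not pass on the isoform level (padj = 0.0826). Whether the isoforms differed from each other was not tested. Other cells that can make Bcl11b were followed by their markers. Interneuron markers summed to 486 to 914 FPKM in CONTROL-VEH, against 401 to 578 FPKM in OGD-VEH, and striatal projection neuron markers to 39.3 to 76.5 FPKM and 19.8 to 45.4 FPKM, with overlap for both. In the TIA arm interneuron markers summed to 491 to 755 FPKM in CONTROL-TIA and 282 to 489 FPKM in OGD-TIA, without overlap. Striatal markers summed there to 38.0 to 52.9 FPKM and 26.0 to 60.7 FPKM, with overlap. In OGD-VEH vs. CONTROL-VEH 1 of 11 interneuron markers, Sst, passed padj as lower, beside 3.45% of all genes. At an unadjusted p under 0.05, 4 were lower and 4 higher, beside 14.9% and 20.2% of all genes. Of 9 striatal markers tested 0 passed padj. In OGD-TIA vs. CONTROL-TIA 0 of the 11 interneuron markers passed padj, nor did any of the 16242 genes tested. There 4 of the 11 markers were lower at an unadjusted p under 0.05, beside 7.92% of all genes, and 0 were higher. Their part in the Bcl11b values was not tested.

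Fezf2, the zinc-finger factor that acts before Bcl11b in subcerebral neurons, had a lower mean after OGD with overlapping groups. CONTROL-VEH cultures had 34.5, 34.6, 28.1 and 39.2 FPKM and OGD-VEH cultures 33.1, 25.7, 23.0 and 13.998 FPKM. In the TIA arm the controls ranged from 28.2 to 35.7 FPKM and the OGD cultures from 27.8 to 35.5 FPKM, so that these groups covered nearly the same range. Fezf2 had a log2 fold change of -0.56 ± 0.25 (padj = 0.146) without TIA, -0.12 ± 0.12 (padj = 0.595) with TIA and -0.34 ± 0.15 (padj = 0.0928) in the joint model. The main isoform Fezf2-201 held 80.8% of the level.

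Tbr1, the factor of early-born layer VI and subplate neurons that opposes Fezf2, was lower after OGD in the vehicle arm and overlapped its controls in the TIA arm. CONTROL-VEH cultures had 43.3, 43.6, 49.2 and 47.9 FPKM and OGD-VEH cultures 42.9, 26.2, 24.7 and 15.3 FPKM. CONTROL-TIA cultures had 51.3, 49.4, 40.5 and 59.4 FPKM and OGD-TIA cultures 45.7, 49.5, 46.1 and 32.9 FPKM. The vehicle groups did not overlap, with OGD-VEH lower as in 9.95% of all genes tested, though culture 9 lay only just below its controls. In the TIA arm culture 16 alone was below its controls. The log2 fold change was -0.84 ± 0.27 (padj = 0.0732) without TIA, -0.21 ± 0.16 (padj = 0.492) with TIA, and -0.53 ± 0.18 (padj = 0.0369) in the joint model. That last call was the least stable of the 4: 8 of the 16 fits that left out 1 culture gave a padj above 0.05, from 0.0595 to 0.0708. The long isoform Tbr1-201 held 85.4% of the level and averaged 39.3 ± 1.81 FPKM in CONTROL-VEH, 41.9 ± 3.32 in CONTROL-TIA, 24.3 ± 9.61 in OGD-VEH and 37.0 ± 5.07 in OGD-TIA. The processed transcript Tbr1-203 (796 bases) varied from 0.075 to 12.8 FPKM among CONTROL-TIA cultures alone.

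Foxp2, a forkhead factor of corticothalamic neurons, had the lowest level of the 9 factors. Its summed level was 1.47, 0.985, 1.18 and 4.05 FPKM in CONTROL-VEH, against 0.999 to 1.34 FPKM in OGD-VEH. CONTROL-TIA cultures had 2.33, 2.13, 1.12 and 4.88 FPKM and OGD-TIA cultures 0.939 to 1.99 FPKM. The groups overlapped, and the log2 fold change of -0.60 ± 0.30 in the joint model did not pass (padj = 0.132). Foxp2-216, an isoform of 352 bases that was at 0 in 11 of the 16 cultures, held 3.24 of the 4.88 FPKM in culture 8, about 24.1 reads. The full-length isoforms Foxp2-201 and Foxp2-207 together had 0.954 to 3.11 FPKM in CONTROL-VEH, 0.946 to 1.65 in CONTROL-TIA, 0.950 to 1.34 in OGD-VEH and 0.939 to 1.30 in OGD-TIA. Culture 4, at 3.11 FPKM, was the single one above 1.65 FPKM.

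Tle4, the co-repressor of layer VI neurons, was the most even of the factors. Its means were 20.4 ± 3.09 FPKM in CONTROL-VEH, 20.7 ± 2.35 in CONTROL-TIA, 21.0 ± 0.53 in OGD-VEH and 21.0 ± 1.07 in OGD-TIA. Tle4 had a log2 fold change of 0.06 ± 0.13 without TIA (padj = 0.782) and 0.03 ± 0.10 with TIA (padj = 0.895), and the sign of these small values turned to -0.03 and -0.02 under median-ratio scaling. All OGD cultures were between 20.1 and 22.3 FPKM, inside the range of the controls.

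Neurod6, the common projection neuron factor, had the largest log2 difference of the 9 factors in the vehicle arm, with a wide spread among OGD cultures. CONTROL-VEH cultures had 149.7, 162, 165 and 129 FPKM and OGD-VEH cultures 132, 90.5, 97.6 and 32.6 FPKM. CONTROL-TIA cultures had 143, 166, 170.2 and 153 FPKM and OGD-TIA cultures 144, 156, 165 and 78.8 FPKM. Culture 9 lay inside the CONTROL-VEH range, and in the TIA arm culture 16 was the 1 culture below its controls. For Neurod6 the log2 fold change was -0.94 ± 0.38 (padj = 0.118) without TIA, -0.27 ± 0.22 (padj = 0.519) with TIA and -0.60 ± 0.24 (padj = 0.0688) in the joint model. Neurod6 has a single isoform, so these values carry no choice among transcripts.

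**Figure D3:**
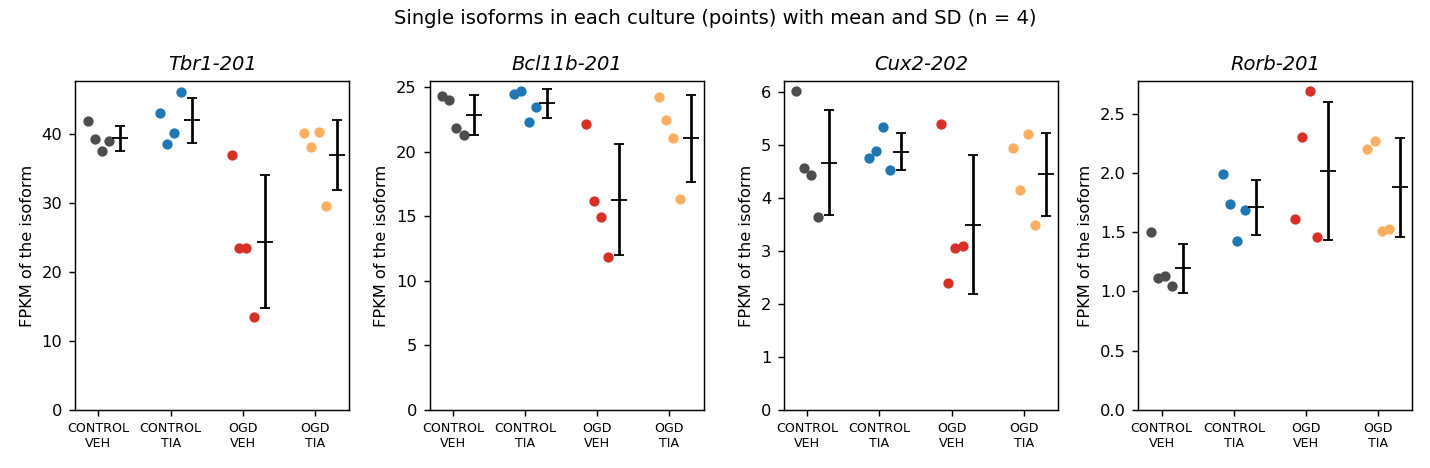
FPKM of 4 single isoforms (y axes, from 0) in the 4 groups (x axes), with 1 point per culture and the group mean with SD (n = 4). Tbr1-201 lies below CONTROL-VEH in all OGD-VEH cultures, whereas OGD-VEH culture 9 overlaps CONTROL-VEH for Bcl11b-201 and Cux2-202, and Rorb-201 overlaps through its OGD-VEH culture 12.

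One culture decided whether these differences were called in the vehicle arm. Without OGD-VEH culture 9, 6 of the 9 factors passed padj and 3 became DEGs: Cux2 at -1.06, Tbr1 at -1.09 and Neurod6 at -1.19 on the log2 scale. The number of DEGs among all genes then rose from 668 to 2186. At padj alone, 2931 of 16366 genes passed as higher and 2060 as lower in that fit. Leaving out any other culture of this comparison left 0 of the 9 as DEGs and 1 to 71 DEGs among all genes. No label sets culture 9 apart, and it was kept. Among the 4 OGD-VEH cultures, culture 12 had the lowest value of Cux2, Bcl11b, Fezf2, Tbr1 and Neurod6 and the highest of Cux1, Rorb and Foxp2.

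TIA alone did not detectably move the factors, and the comparison between OGD groups was limited by their spread. In CONTROL-TIA vs. CONTROL-VEH, 0 of the 9 factors had an unadjusted p under 0.05 (all padj = 0.9994), with log2 fold changes from -0.30 (Cux1) to 0.47 (Foxp2), and limma called 0 of 16170 genes, with 292 higher and 329 lower at an unadjusted p under 0.05. In OGD-TIA vs. OGD-VEH, Tbr1 had a log2 fold change of 0.75 ± 0.29 and Cux2 one of 0.71 ± 0.28, both with an unadjusted p under 0.05 in the higher direction, as had 2.87% of all genes, and a padj of 0.5505. Neurod6 followed with 0.73 ± 0.43 (padj = 0.5505), and limma called 0 genes in all there, with 469 higher and 824 lower at an unadjusted p under 0.05. After OGD with TIA, limma called no DEG either in OGD-TIA vs. CONTROL-TIA (0.0% of 16242 genes, with 1888 higher and 1286 lower at an unadjusted p under 0.05). The difference of the OGD effect between arms was tested by the interaction, in which 0 of the 9 factors had an unadjusted p under 0.05. Without OGD-VEH culture 9, 3 of them did (Bcl11b, Fezf2 and Tbr1), all with a higher effect in the TIA arm, and 0 passed padj. Of 16305 genes in that fit, 1337 were higher and 1602 lower at an unadjusted p under 0.05. The smallest was that of Tbr1, for which the effect with TIA was higher by 0.64 ± 0.33 on the log2 scale (padj = 0.722 by limma). The comparisons share their control or OGD groups and are not independent of one another.

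**Figure D4:**
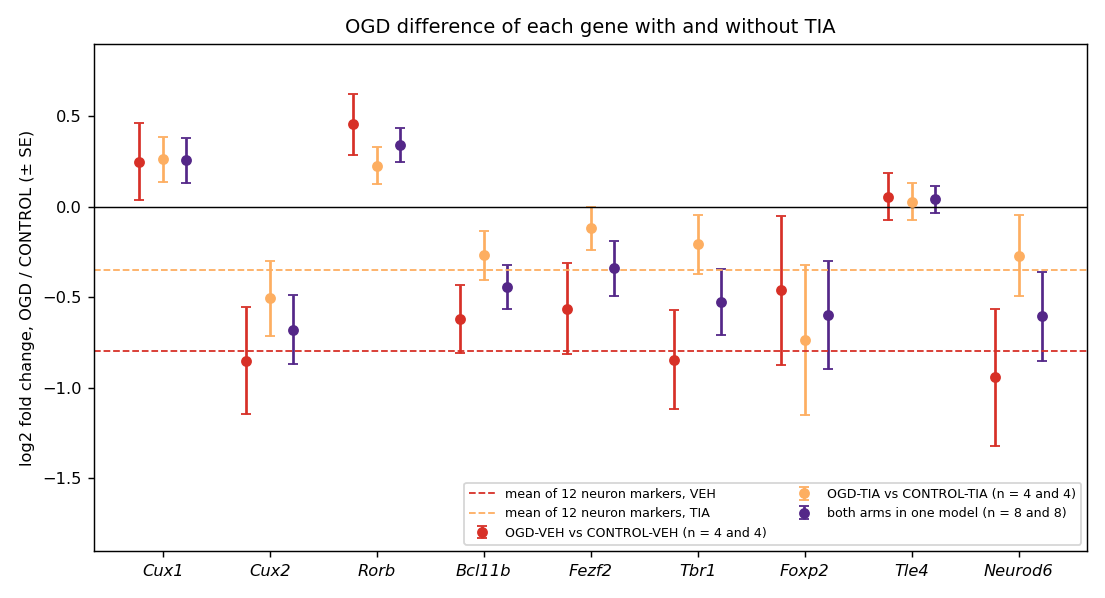
Log2 fold change of OGD over CONTROL with its standard error (y axis) for each factor (x axis), without TIA, with TIA and in the joint model, with dashed lines for the mean change of the 12 neuron markers in each arm. Without TIA, Cux2, Bcl11b, Fezf2, Tbr1, Foxp2 and Neurod6 lie within their standard error of the marker line at -0.80, while Cux1, Rorb and Tle4 lie above 0.

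Set beside general neuron markers (such as Map2, Tubb3 and Rbfox3), the factors differed in how far they followed the markers. The mean log2 level of the 12 markers was lower by 0.80 in OGD-VEH than in CONTROL-VEH and by 0.35 in OGD-TIA than in CONTROL-TIA, with all OGD cultures below all controls in both arms. Relative to that mean, the differences in OGD-VEH were -0.06 for Cux2, -0.05 for Tbr1, -0.15 for Neurod6, 0.18 for Bcl11b and 0.23 for Fezf2, and the groups overlapped for each of them. In OGD-TIA they were -0.16 for Cux2, 0.14 for Tbr1, 0.08 for Neurod6, 0.08 for Bcl11b and 0.23 for Fezf2, again with overlap. Foxp2 differed in sign between the arms, at 0.34 in OGD-VEH and -0.39 in OGD-TIA. Among OGD-VEH cultures the SD of this relative level was 0.10 for Fezf2, 0.11 for Tbr1, 0.17 for Bcl11b, 0.34 for Cux2 and 0.39 for Neurod6, against 0.53 for the marker mean itself. The SD was 0.50 for Tle4, 0.60 for Foxp2, 0.78 for Rorb and 0.87 for Cux1. Relative to the same markers Rorb was higher by 1.25 in OGD-VEH and by 0.57 in OGD-TIA, with no overlap in either arm. Cux1 was higher by 1.05 and 0.61, without overlap in the TIA arm, and Tle4 by 0.85 and 0.38, with overlap in both. Between the OGD groups, Tbr1 alone had no overlap on this scale, with OGD-TIA above OGD-VEH by 0.32. These relative differences are descriptions with no test, since the markers were themselves measured in the same cultures. Because the marker mean was lower after OGD, a gene that kept its level would be higher than its controls on this scale. The share of all genes without overlap on this scale was not computed.

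The summed level of progenitor markers and that of oligodendrocyte lineage markers was higher in every OGD culture than in any control of their arm. Of all single genes tested, 12.7% had that arrangement without TIA and 9.51% with TIA. Progenitor markers (Vim, Nes, Sox2 and others) summed to 523 to 634 FPKM in CONTROL-VEH, against 918 to 3025 FPKM in OGD-VEH, and to 472 to 671 and 828 to 1840 FPKM in the TIA arm. Oligodendrocyte lineage markers (Olig1, Olig2, Pdgfra and others) summed to 177 to 213 FPKM and 244 to 676 FPKM in the vehicle arm and to 159 to 194 and 225 to 438 FPKM in the TIA arm. In OGD-VEH vs. CONTROL-VEH, 2 of 9 progenitor markers passed padj as higher, and of 7 oligodendrocyte lineage markers tested 4 passed as higher and 1, the myelin gene Mbp, as lower (-0.88). Among all genes, 4.99% passed padj as higher and 3.45% as lower there. In the TIA arm 0 markers of either list passed padj, nor did any of the 16242 genes tested. At an unadjusted p under 0.05 by limma, 3 of 9 progenitor and 4 of 7 oligodendrocyte lineage markers were higher there. Among all genes, 1888 of 16242 were. Astrocyte markers summed to 769 to 1642 FPKM and 1034 to 2607 FPKM without TIA, with overlap. Their part in the values of Rorb, Cux1 and Tle4 was not tested.

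**Figure D5:**
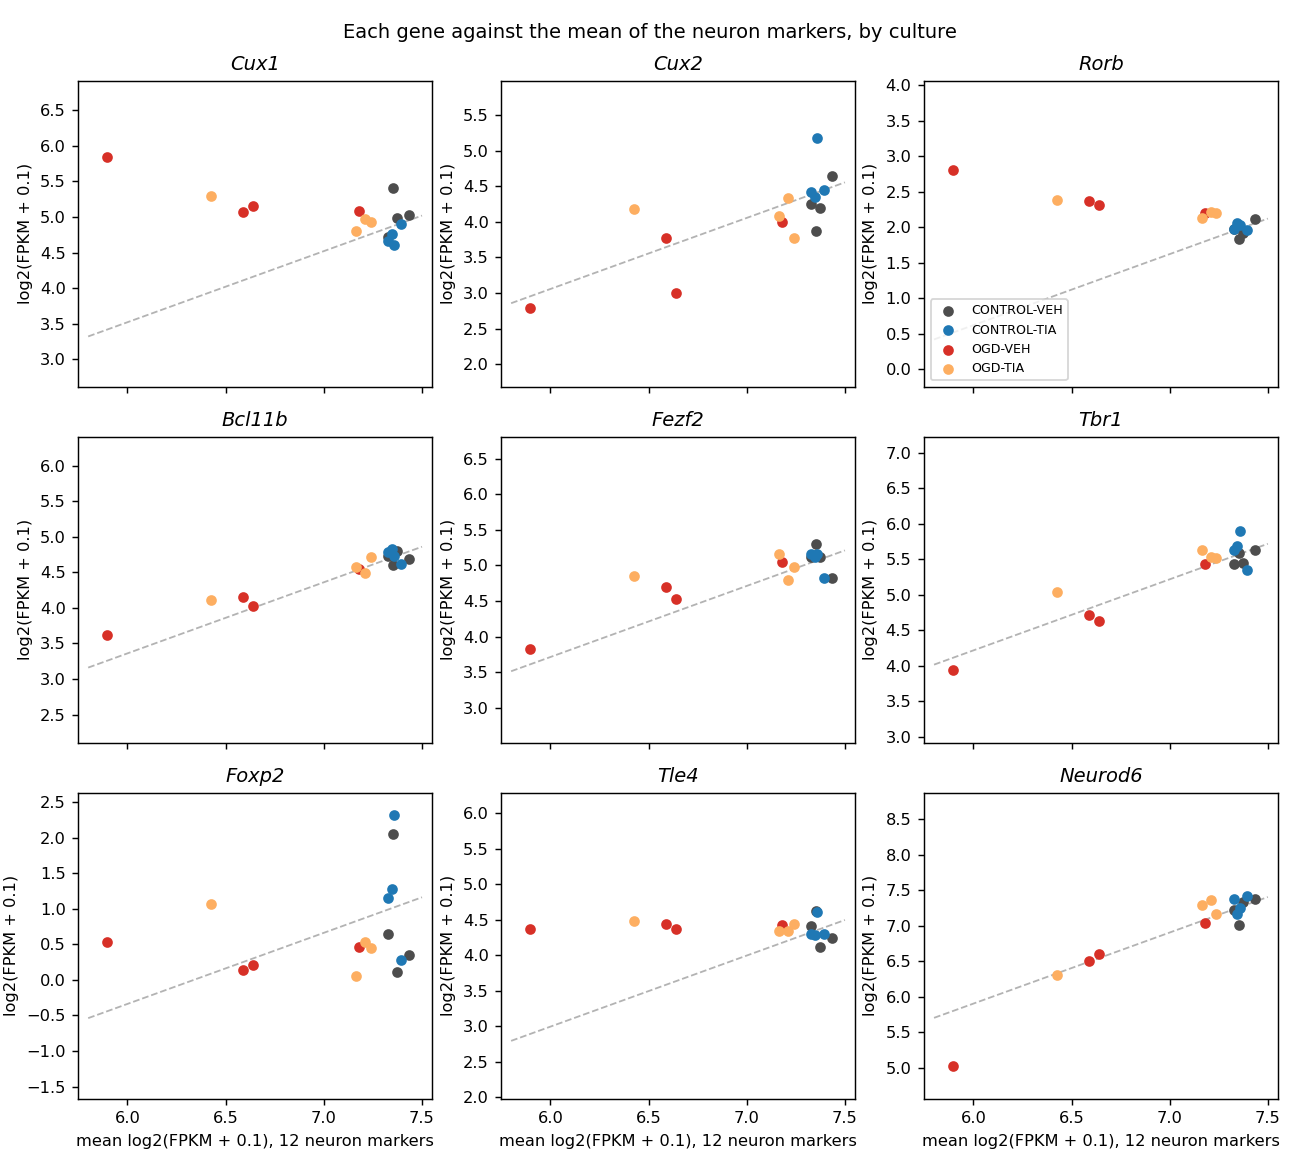
Log2 level of each factor (y axes, each spanning the same number of log2 units) against the mean log2 level of the 12 neuron markers (x axes) in the 16 cultures. The dashed line passes through the mean of the controls with a slope of 1: Bcl11b and Tbr1 stay near it, Neurod6 does so except in OGD-VEH culture 12, and Rorb, Cux1 and Tle4 lie above it in the OGD cultures with few neuron transcripts.

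Further genes of the layers were read from lists. At padj alone, 3.45% of all genes were lower and 4.99% higher in OGD-VEH vs. CONTROL-VEH. Of 18 further upper-layer genes, 0 were DEGs in OGD-VEH vs. CONTROL-VEH and 3 passed padj as lower, namely Unc5d, a netrin receptor (-0.63, padj = 0.0447), Mdga1, an adhesion molecule of migrating upper-layer neurons (-0.63, padj = 0.0374), and Lpl, a lipoprotein lipase (-0.89, padj = 0.0337). In the joint model, in which 13.4% of all genes fell and 18.7% rose at padj, 7 of the 18 fell and 2 rose. Lamp5, a lysosome-associated membrane protein, fell by 1.25 ± 0.24 from a low level (padj = 0.00303) and was the 1 DEG, and the POU factors Pou3f2 (0.57 ± 0.14, padj = 0.0103) and Pou3f3 (0.50 ± 0.14, padj = 0.0156) rose. The median log2 fold change of the 18 was -0.40 there, beside 0.08 over all genes.

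Among 22 deep-layer and subplate genes that could be tested, Crym, a thyroid hormone binding protein of layer V and VI neurons, was the 1 DEG in OGD-VEH vs. CONTROL-VEH. Its mean fell from 16.7 FPKM in the vehicle controls to 5.99 FPKM after OGD (-1.49, padj = 0.0319). Among all genes, 4.09% were DEGs in that comparison. Sox5, a regulator of the sequence in which corticofugal neurons are made, passed padj at -0.72 (padj = 0.0457). In the joint model Crym fell by 1.31 ± 0.15 and Ldb2, a LIM-domain cofactor, by 1.17 ± 0.36, and Lpar1, a lysophosphatidic acid receptor of subplate cells that is also present in oligodendrocytes, rose by 1.15 ± 0.33, all 3 of them DEGs. At padj alone 4 of the 22 fell and 2 rose there, beside 13.4% and 18.7% of all genes. The log2 fold changes of the list ran from -1.31 to 1.15, with a median of -0.06, beside 0.08 over all genes. Among all genes, 4.78% were DEGs in that model.

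Of 24 transcription factors of projection neuron development and cortical patterning, 2 were DEGs in OGD-VEH vs. CONTROL-VEH, beside 4.09% of all genes. The median log2 fold change of the 24 was 0.055 there, beside 0.10 over all genes. Mef2c, an activity-dependent MADS-box factor, fell from a mean of 479 FPKM in the vehicle controls to 145 FPKM after OGD (-1.901, padj = 0.0367). Myt1l, a zinc-finger guardian of neuronal identity, fell from 179 to 63.6 FPKM (-1.73, padj = 0.0449). Both were also the 2 DEGs of the list in the joint model, where 4.78% of all genes were DEGs. At padj alone 6 of the 24 fell and 2 rose there, beside 13.4% and 18.7% of all genes. The risen ones were Sox4 (0.65 ± 0.17) and Neurog2 (0.74 ± 0.23), both known from immature neurons. The median of the 24 in that model was 0.05, beside 0.08 over all genes. Of 11 paralogs of the 9 factors that could be tested, 0 were DEGs in either comparison, beside 4.09% and 4.78% of all genes. In the joint model the Neurod6 paralogs Neurod1 (-0.78 ± 0.22, padj = 0.0154) and Neurod2 (-0.58 ± 0.20, padj = 0.0404) and the Foxp2 paralog Foxp4 (-0.50 ± 0.18, padj = 0.0428) fell, and the Tle4 paralog Tle1 rose (0.52 ± 0.14, padj = 0.014).

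The genes whose profiles over the 16 cultures lay nearest to each factor were found by the root-mean-square difference of centred log2 levels among 13255 protein-coding genes, a description without a test. Nearest to Bcl11b was Tspyl4 (0.05 log2 units), the smallest distance of any factor, followed by Hcn2, a hyperpolarization-activated channel (0.07), and Magee1 (0.08). Nearest to Tbr1 were Gucy1b1, a subunit of the nitric oxide receptor guanylate cyclase (0.12), Gabrb2, a GABA-A receptor subunit (0.13), and Syt5, a synaptotagmin (0.14). Nearest to Neurod6 were Lrrc3b (0.10), Lrfn5, a synaptic adhesion molecule (0.11), and Wipf3 (0.11). Rorb had Pak2 (0.06), a kinase made by most cells, Rab8b (0.08) and Xpo5 (0.08), an exporter of miRNA precursors, as neighbours. For Fezf2 they were Galnt14, Cntn3 and Ptpre (0.11 to 0.13), for Cux1 Galc, Gm2a and Mmd2 (0.13), and for Tle4, whose own profile varied by only 0.12, Dctn2, Ube2b and Tnrc18 (0.09 to 0.10). Cux2 (Cfap206, 1700019D03Rik and Slc8a1, 0.25 to 0.29) and Foxp2 (Pnoc, C1qtnf1 and Il1rapl2, 0.36 to 0.41) had the largest distances. Their own profiles varied by 0.56 and 0.66, and distances were not scaled by how much a factor varied.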

How the data were processed

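RNA of 16 cultures was sequenced as 50-base single-end reads of stranded mRNA libraries. The authors aligned reads with STAR to GRCm38, quantified isoforms of Ensembl release 92 and deposited FPKM for 135202 isoforms, on which count models do not apply, so DESeq2, named in the submitters' processing notes, was not run here. FPKM were summed per gene symbol (9 of 53679 symbols). Depth was estimated from the steps of low values. Genes that averaged 0.5 FPKM or more in the cultures of a comparison were tested with limma 3.58.1 (R 4.3.3, trend, pseudocount 0.1) and adjusted by Benjamini-Hochberg over all genes. The model was tested on simulated data with changes of a fixed size, in which every group had the spread of the control cultures. OGD cultures spread more widely, so the simulation does not show how the model performs at their spread. The OGD effect over both arms had OGD and TIA as terms, and the interaction was tested separately. The 9 factors were named in every comparison, genes of other lists where called, and the 3 nearest profiles for each factor. The members and lists were chosen with earlier results of these data known. Replicate cultures correlated at 0.923 to 0.971 (log2), and none was a duplicate. Alternatives were pseudocounts, filters, scaling, weights, isoform sums and left-out cultures. Promoter windows came from RefSeq, and figures were drawn with matplotlib 3.10.9. Values of 1 gene of the upper-layer list are not reported here.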

Additional observations from a re-analysis of the deposited data

Results flagged for a closer look

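In 36 groups of 4 cultures (9 factors in 4 groups), 5 held a culture whose gap to the others was larger than the critical value of Dixon's test, where chance gives about 1 in 20. Cux1 was 57.3 FPKM in OGD-VEH culture 12, against 33.3 to 35.4 FPKM in the other cultures of the group. Cux2 was 36.2 FPKM in CONTROL-TIA culture 8, against 20.2 to 21.8 FPKM, and Tle4 was 24.2 FPKM in the same culture, against 19.4 to 19.6 FPKM. Fezf2 was 28.2 FPKM in CONTROL-TIA culture 7, against 34.7 to 35.7 FPKM. Foxp2 was 4.05 FPKM in CONTROL-VEH culture 4, against 0.985 to 1.47 FPKM.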

How the results depend on the processing

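No paired analysis was possible because the cultures are numbered 1 to 16 across the groups and share no number. Of 1094 recomputed values, 1024 kept their direction and side of the threshold or stayed within their spread, 35 moved, 24 gained a call, 11 lost one and 0 reversed a call. In OGD-VEH vs. CONTROL-VEH the 668 DEGs became 36 with no filter, 1929 with array quality weights, 1122 with isoforms weighted by length, 1390 with all 16 cultures in one fit and 1 to 2186 with a culture left out. Of the 9 factors, 6 passed padj there with array weights, 3 with length weighting, 5 with all 16 cultures and 0 to 6 with a culture left out, when 0 to 3 were DEGs (3 without OGD-VEH culture 9). Among all genes, 3776 of 16346 passed padj as higher and 2568 as lower with array weights. With length weighting 2535 of 16540 were higher and 1617 lower, and with all 16 cultures 2571 of 16313 were higher and 2023 lower. In OGD-TIA vs. CONTROL-TIA, 0 DEGs became 7 with no filter, 80 with array weights, 73 with length weighting, 1 with protein-coding isoforms, 1 with all 16 cultures and 0 to 16 with a culture left out. With no filter there were 4 DEGs in CONTROL-TIA vs. CONTROL-VEH, 4 in OGD-TIA vs. OGD-VEH and 3 in the interaction. Array weights gave 408 DEGs in OGD-TIA vs. OGD-VEH, with 1 factor past padj (Tbr1, 0.86), and 101 in the interaction, which had 1 with protein-coding isoforms. Leaving out a culture gave 0 to 2 DEGs in OGD-TIA vs. OGD-VEH and 0 to 1 in the interaction, in which 3 factors had an unadjusted p under 0.05 with array weights and 3 without OGD-VEH culture 9. At that level 1963 of 16313 genes were higher and 2344 lower with array weights. Without OGD-VEH culture 9, 1337 of 16305 genes were higher and 1602 lower. In the joint model 780 DEGs became 394 with a pseudocount of 1 and 526 to 1058 with a culture left out, when 3 to 6 factors passed padj. Bcl11b and Rorb passed there under every alternative run. Tbr1 did not with no filter (padj = 0.0697) or array weights (padj = 0.0671), and Neurod6 passed without OGD-VEH culture 9 (padj = 0.0392) or OGD-TIA culture 15 (padj = 0.0486). The cause of these shifts was not tested. Depth limits Cux1-208 in CONTROL-TIA, which rests on about 1.17 to 11.8 reads, and p-values rest on 4 cultures a group.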
